A study of Mus musculus with 15 samples.

Results

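The SLC6 family of amino acid and osmolyte transporters was followed here through 8 of its genes in mouse choroid plexus: Slc6a20a, Slc6a20b, Slc6a15, Slc6a9, Slc6a6, Slc6a12, Slc6a13 and Slc6a8. They are 8 of the 19938 genes to which a probe set of the array was assigned, and were selected on family membership and on levels already seen in these arrays, among them the high null level of Slc6a20a. A gene was taken as the probe set whose platform symbol it carries, with the highest mean where there were several. Each of the 8 had a single probe set, so the second part of the rule decided nothing.

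SLC6 proteins sit in the plasma membrane and carry a small solute into the cell together with sodium and, for most members, chloride, so that the sodium gradient drives uptake against the solute's own gradient. Some members take up transmitters such as GABA and glycine, and others take up neutral amino acids, proline, creatine, or the osmolytes taurine and betaine. In the choroid plexus, an epithelium around a vascular stroma that makes cerebrospinal fluid, such transporters are known for moving amino acids and osmolytes between that fluid and the blood.

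The animals differed at Add1, which encodes alpha-adducin, a protein that joins spectrin to actin filaments under the membrane. Choroid plexus RNA came from 5 wild-type, 5 heterozygous and 5 null mice, all on C57BL/6J, labelled male and 3 weeks old, an age chosen to precede hydrocephalus. Each array held the RNA of 1 mouse. Neither the deleted segment of Add1 nor the cells that lost it are described in the labels.

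The targeted gene read 7.78 to 8.04 on the log2 scale in the wild-type arrays, 7.68 to 7.92 in the heterozygous and 7.41 to 7.76 in the null arrays, and where its probes lie relative to the deletion is not known. The summed linear signal of the choroid plexus epithelium markers, divided by 1000 here and below, of which 15 of 18 had a probe set and all 15 exceeded the expression filter, was 38.2 to 41.5 in the wild-type, 36.9 to 40.7 in the heterozygous and 36.9 to 40.0 in the null arrays. Null arrays 1 and 5 went against the male label: Xist, the transcript of the inactive X chromosome, read 9.09 and 9.69 against 3.11 to 3.88 in the other 13 arrays, and the Y-linked Eif2s3y, Uty and Kdm5d were low. Heterozygous array 1 stood apart in neural transcripts, with Gabra6, a cerebellar granule cell receptor subunit, at 7.80 against 4.42 to 5.69 elsewhere. The tested members' differences between null and wild type are given with and without the arrays of mismatched sex. Calls of other genes between null and wild type that ended without them are named.

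All levels below are log2 RMA values, and a difference of 1 is a doubling. Limma was fitted to 10109 genes that exceeded 5.31, the median over the probe sets kept for the 19938 genes, in at least 5 arrays, and a gene was called when its p-value, adjusted over those genes by the Benjamini-Hochberg method, was under 0.05. Of the 8 members, 6 entered the test: Slc6a8, Slc6a9, Slc6a15 and Slc6a20a exceeded the filter value in all 15 arrays, Slc6a6 in 14 and Slc6a13 in 13. Slc6a12 exceeded it in 2 arrays and Slc6a20b in 0, and their values are given without a test. In the tissue as a whole, fewer cells of a type and less RNA per cell cannot be told apart.

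In the null arrays Slc6a20a, Slc6a15, Slc6a6 and Slc6a9 were higher than in the wild type, by 1.33 to 2.13-fold, while Slc6a8 and Slc6a13 were not called. Of the 5 tested members other than Slc6a20a, 3 were called, beside 7.72% of all tested genes in the same comparison, 4.17% being higher in the null and 3.54% lower, and nothing is read from the members' count. At an unadjusted p under 0.05 the share of all genes was 24%. Since the null level of Slc6a20a was among the reasons for the choice, it is given as a description with no test. The median difference of the other 5 was 0.414, beside 0.012 over all tested genes. The members were chosen with earlier results of these data known, so nothing is read from this median either.

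**Figure D1:**
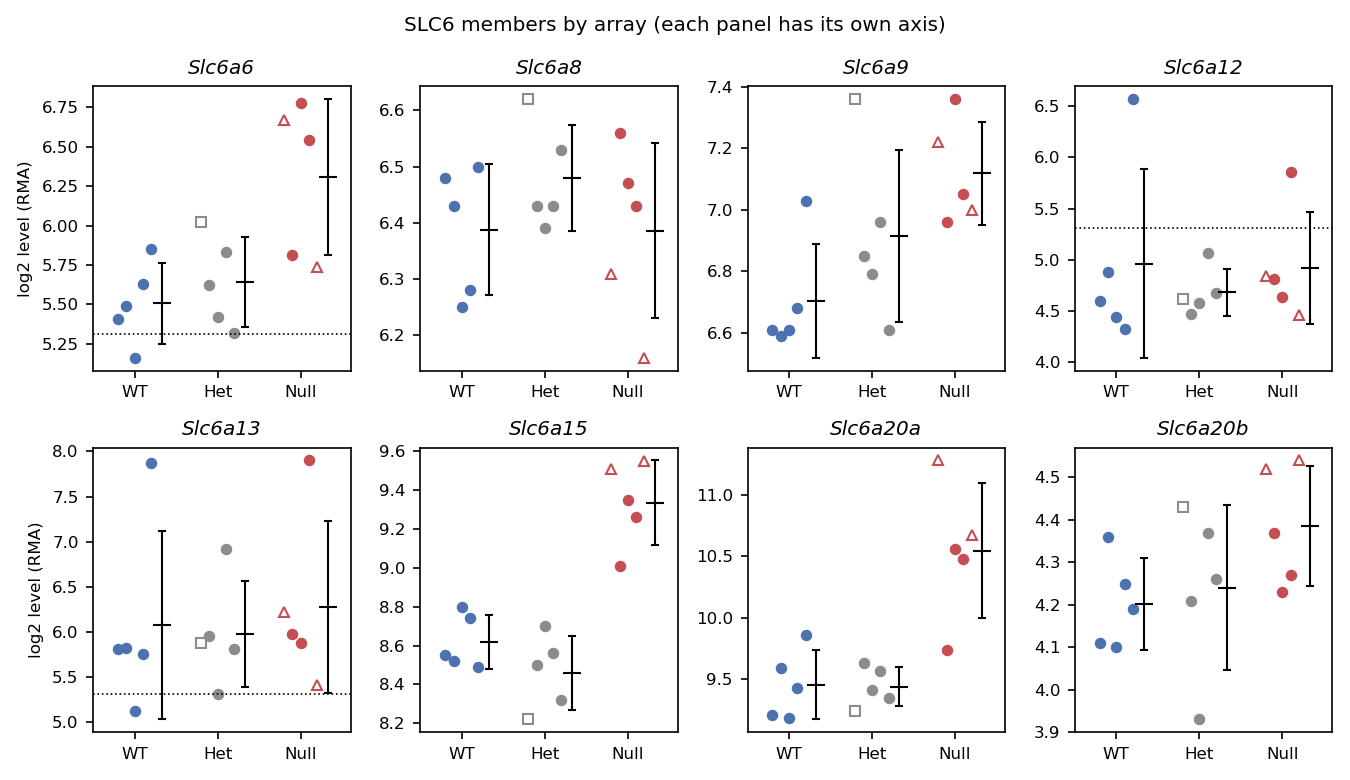
Log2 RMA level (vertical axis, a separate scale in each panel) of the 8 genes in 5 wild-type (WT), 5 heterozygous (Het) and 5 null arrays; each point is 1 array, the bar beside each group is its mean ± SD, open triangles are the null arrays that do not match the labelled sex, the open square is the heterozygous array with neural transcripts, and the dotted line is the filter value of 5.31 where it falls in the panel. The null points of Slc6a15 lie above all others, and those of Slc6a20a lie above the wild-type range except for null array 2 at 9.74.

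Slc6a20a and Slc6a20b are the paired mouse genes related to the human proline transporter SLC6A20 (also called SIT1), which carries proline and other imino acids. They are neighbours on chromosome 9. The 250 bases before their RefSeq starts in GRCm38.p6 are shown because these neighbouring copies differ in both level pattern and base composition. Capitals mark CG dinucleotides, the sites at which vertebrate DNA is methylated.
Slc6a20a, chr9:123678833-123679082, minus strand: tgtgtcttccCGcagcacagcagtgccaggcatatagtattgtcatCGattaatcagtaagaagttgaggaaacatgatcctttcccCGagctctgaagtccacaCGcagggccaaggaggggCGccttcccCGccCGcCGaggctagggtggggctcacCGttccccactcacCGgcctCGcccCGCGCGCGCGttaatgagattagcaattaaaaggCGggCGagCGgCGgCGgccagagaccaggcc
Slc6a20b, chr9:123632539-123632788, minus strand: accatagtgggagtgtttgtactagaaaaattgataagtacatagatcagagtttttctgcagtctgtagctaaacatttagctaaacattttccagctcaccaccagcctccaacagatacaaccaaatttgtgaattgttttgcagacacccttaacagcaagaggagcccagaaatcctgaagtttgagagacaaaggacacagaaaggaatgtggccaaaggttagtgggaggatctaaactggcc
The Slc6a20a window held 21 CG dinucleotides, a number that 16.3% of 32851 RefSeq windows of the same length reach, and 61.2% G and C. The Slc6a20b window held 0 CG and 41.6% G and C. The median window holds 6 CG. The TATAAA box, on either strand, occurs in 12.4% of windows and in neither of these 2.

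Slc6a20a read 9.21, 9.59, 9.18, 9.43 and 9.86 in the wild-type arrays. It read 9.24, 9.63, 9.41, 9.57 and 9.35 in the heterozygous arrays and 11.28, 9.74, 10.56, 10.48 and 10.67 in the null arrays. Null array 2 lay inside the wild-type range, the other 4 null arrays lay above it, and all 5 lay above every heterozygous array. The null mean exceeded the wild-type mean by 1.09 (SE 0.198), a 2.13-fold difference, and the heterozygous mean by 1.11 (SE 0.198). The heterozygous mean differed from the wild-type mean by -0.01 (95% interval -0.43 to 0.40, adjusted p = 0.994, limma). Null arrays 1 and 5, the arrays of mismatched sex, held the highest Slc6a20a values, and without them the null excess was 0.81 over wild type and 0.82 over the heterozygotes (SE 0.176 for each).

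The copy Slc6a20b stayed at the low end of the scale, with 4.11, 4.36, 4.10, 4.25 and 4.19 in the wild type, 4.43, 4.21, 3.93, 4.37 and 4.26 in the heterozygotes and 4.52, 4.37, 4.23, 4.27 and 4.54 in the null arrays. Its groups overlapped, though 3 null arrays lay above every wild-type array. The highest were null arrays 1 and 5, those of mismatched sex. The null excess over wild type in a fit without the filter, with these arrays included, was 0.18 (SE 0.0896). Probes of closely related copies may bind each other's transcript, so the Slc6a20b values are uncertain beside the strong signal of Slc6a20a.

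Slc6a15 encodes a sodium-dependent carrier of branched-chain amino acids and proline. It read 8.55, 8.52, 8.80, 8.74 and 8.49 in the wild-type arrays, 8.22, 8.50, 8.70, 8.56 and 8.32 in the heterozygous arrays, and 9.51, 9.01, 9.35, 9.26 and 9.55 in the null arrays. All 5 null arrays lay above all other arrays. The null and wild-type arrays of 5.95% of tested genes did not overlap, in either direction. Slc6a15 rose by 0.72 in the null against the wild type (1.64-fold, SE 0.106, 95% interval 0.49 to 0.94, adjusted p = 0.000942, limma) and by 0.88 against the heterozygotes (1.84-fold, adjusted p = 0.000385). Without the 2 null arrays of mismatched sex the rise over wild type was 0.59 (adjusted p = 0.00942). The call held in all 15 fits that each left out 1 array, with differences of 0.66 to 0.80.

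The heterozygous level of Slc6a15 lay 0.52 below the midpoint of the null and wild-type means (SE 0.0916, adjusted p = 0.0440, limma), 1 of 6 genes called among 10109 (0.0594%), of which 4 (0.0396%) lay below the midpoint. Leaving out any 1 array other than heterozygous array 3 or null array 2 ended this call, in 13 of 15 fits, with adjusted p-values of 0.0511 to 0.152. For Slc6a20a the distance below the midpoint was 0.56 (SE 0.171) as a description.

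Slc6a9 encodes GLYT1, a glycine carrier found in the brain chiefly on glia. It read 6.61, 6.59, 6.61, 6.68 and 7.03 in the wild-type arrays, 7.36, 6.85, 6.79, 6.96 and 6.61 in the heterozygous arrays and 7.22, 6.96, 7.36, 7.05 and 7.0 in the null arrays. The groups overlapped: 3 null arrays lay above every wild-type array. Slc6a9 rose by 0.41 in the null (1.33-fold, SE 0.121, 95% interval 0.16 to 0.67, adjusted p = 0.0447, limma) against the wild type. Leaving out 1 array ended the call in 10 of 15 fits: without wild-type arrays 1, 2, 3 or 4, heterozygous arrays 2, 3 or 4, or null arrays 1, 3 or 4. The adjusted p in those fits was 0.0541 to 0.121. Without the null arrays of mismatched sex it was 0.120 with a difference of 0.42. The summed signal of astrocyte and radial glia markers was 1.54 to 1.64 in the wild-type, 1.5 to 2.06 in the heterozygous and 1.84 to 2.86 in the null arrays. Vim had the highest level of the tested markers, with a mean of 9.19 in the wild type and 9.92 in the null. Of 10 markers 8 were tested, and 3 were called higher in the null (Vim, Sox2 and Fgfr3). That is 37.5%, beside 7.72% of all tested genes. Aldh1l1, Gja1, Aqp4, Slc1a3 and Gfap were not called (adjusted p 0.0807 to 0.382, limma), and Slc1a2 and Fabp7 were below the filter. The Sox2 call ended without the null arrays of mismatched sex (adjusted p = 0.0722). The part of these glial markers in the Slc6a9 result was not tested.

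Slc6a6 encodes TauT, which takes up taurine, an osmolyte that cells release when they swell. It read 5.41, 5.49, 5.16, 5.63 and 5.85 in the wild type, 6.02, 5.62, 5.42, 5.83 and 5.32 in the heterozygotes and 6.67, 5.81, 6.78, 6.54 and 5.74 in the null arrays. Null arrays 1, 3 and 4 lay above every wild-type and heterozygous array, while null arrays 2 and 5 lay inside both ranges. Slc6a6 rose by 0.80 in the null against the wild type (1.74-fold, SE 0.194, 95% interval 0.39 to 1.21, adjusted p = 0.0191, limma) and by 0.67 against the heterozygotes (1.59-fold, adjusted p = 0.0439). The first call was lost on leaving out wild-type array 1, wild-type array 3, null array 1 or null array 3 (adjusted p 0.0526 to 0.0590), and the second in 10 of 15 such fits, those that dropped wild-type array 1, 2 or 4, heterozygous array 2, 3, 4 or 5, or null array 1, 3 or 4 (adjusted p 0.0537 to 0.1195). Without the null arrays of mismatched sex the difference from the wild type was 0.87 (adjusted p = 0.0268), and that from the heterozygotes was 0.73 (adjusted p = 0.0602).

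Other covariates also moved these calls. The numbers in the sample labels, of unstated meaning, ran partly with genotype. With that number in the fit the null excess over wild type was 1.07 for Slc6a6 (adjusted p = 0.0533, limma), 0.51 for Slc6a9 (adjusted p = 0.145) and 0.77 for Slc6a15 (adjusted p = 0.0204). A fit with the fibroblast marker mean, added once the values had been seen, gave 0.61 for Slc6a6 (adjusted p = 0.108) and 0.36 for Slc6a9 (adjusted p = 0.165). A fit with the Xist level, added likewise, gave 0.42 for Slc6a9 (adjusted p = 0.115).

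**Figure D2:**
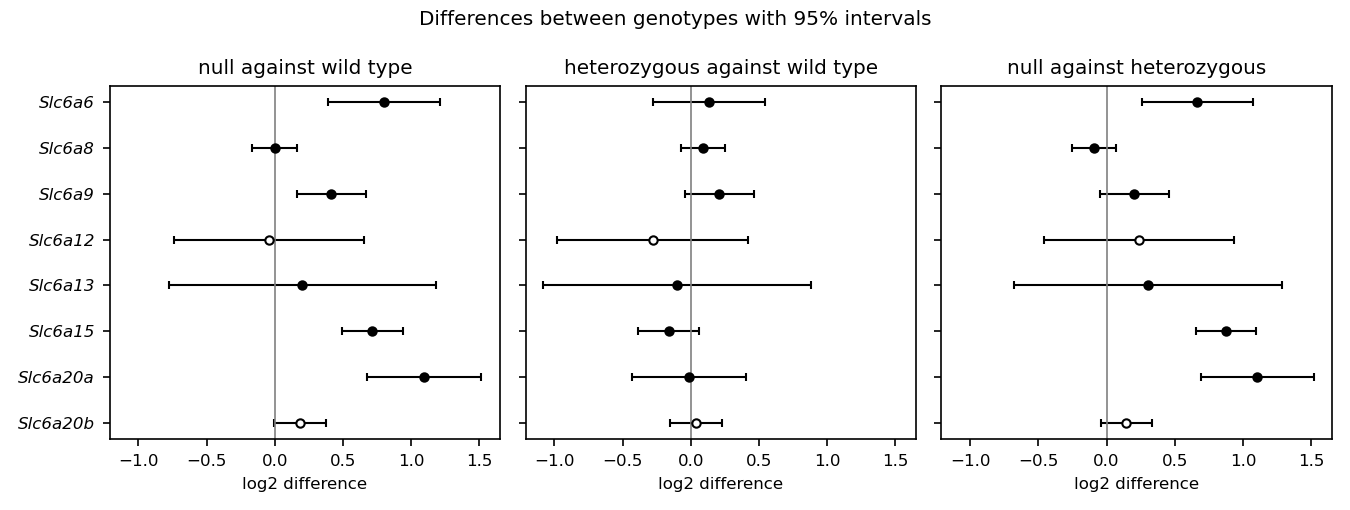
Log2 difference (horizontal axis) of each gene between the genotypes named above each panel, with 95% intervals from limma over all 15 arrays; filled points passed the filter and open points (Slc6a12, Slc6a20b) come from a fit without it. The intervals of Slc6a15, Slc6a6 and Slc6a9 lie above 0 for null against wild type, and all intervals of heterozygous against wild type include 0. Those of Slc6a20a are drawn as a description, since its null level was among the reasons for the choice.

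Slc6a13 and Slc6a12 encode GABA transporters of the GAT group, GAT2 and BGT1. GAT2 also carries taurine, and BGT1 carries the osmolyte betaine. They are neighbours on chromosome 6, and the windows before their first listed RefSeq starts (GRCm38.p6) are shown for their shared pattern across arrays, with CG dinucleotides in capitals.
Slc6a13, chr6:121300038-121300287, plus strand: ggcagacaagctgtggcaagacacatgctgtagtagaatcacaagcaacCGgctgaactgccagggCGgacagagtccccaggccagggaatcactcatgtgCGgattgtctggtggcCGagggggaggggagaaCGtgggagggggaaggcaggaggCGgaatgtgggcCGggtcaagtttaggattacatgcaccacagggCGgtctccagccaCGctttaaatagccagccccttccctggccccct
Slc6a12, chr6:121342324-121342573, plus strand: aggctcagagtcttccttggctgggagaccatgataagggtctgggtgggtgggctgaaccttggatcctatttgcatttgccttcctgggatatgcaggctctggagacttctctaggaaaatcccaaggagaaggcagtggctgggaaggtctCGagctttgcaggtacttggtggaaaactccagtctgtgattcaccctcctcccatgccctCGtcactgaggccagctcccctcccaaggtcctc
The Slc6a13 window held 9 CG, a number that 40.3% of windows reach, and the Slc6a12 window 2, which 81.2% reach. TGGAAA, the core of the site of the osmotic-stress factor Nfat5, was sought on both strands, with a match in 18.6% of all windows: it occurred once in the Slc6a12 window and in the Slc6a20b window, and not in the printed window of Slc6a13 or Slc6a20a. RefSeq lists 3 windows for Slc6a13 and 5 for Slc6a12: TGGAAA occurred in the third of Slc6a13 and in none of the other 4 of Slc6a12, so these counts hold for the windows named. TAATCC, the core of the homeobox factor Otx2, is found in 6.25% of windows and occurred in the first Slc6a13 window. CACGTG, the E-box that the clock factor Arntl binds, is found in 6.02% of windows and was in none of the 4 printed windows. A match of letters does not show that a factor binds.

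Slc6a13 read 5.81, 5.82, 5.12, 5.76 and 7.87 in the wild type, 5.88, 5.96, 5.31, 6.92 and 5.81 in the heterozygotes and 6.22, 5.98, 5.88, 7.90 and 5.41 in the null arrays. Slc6a12 read 4.60, 4.88, 4.44, 4.33 and 6.57 in the wild type, 4.62, 4.47, 4.58, 5.07 and 4.68 in the heterozygotes and 4.84, 4.81, 4.64, 5.86 and 4.46 in the null arrays. The high arrays were the same for both genes, wild-type array 5, null array 4 and, less far from the rest, heterozygous array 4, so that each genotype had 1 high array and the groups overlapped. Slc6a13 differed by 0.20 between null and wild type (SE 0.466, 95% interval -0.78 to 1.18, adjusted p = 0.835, limma), and Slc6a12 by -0.04 (95% interval -0.74 to 0.66, fit without the filter). Single arrays set the size and sign of the Slc6a13 difference: it was 0.65 without wild-type array 5, -0.20 without null array 4, -0.04 without wild-type array 3 and 0.42 without null array 5. Without both null arrays of mismatched sex it was 0.51 (adjusted p = 0.653).

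Over the 15 arrays Slc6a13 and Slc6a12 correlated at Pearson r = 0.917 (Spearman rho 0.823), and at 0.744 without null array 4 and wild-type array 5. Of 18 fibroblast markers of the leptomeninges and stroma, the transporters Slc22a6 and Slc47a1 were picked out after their values were seen. Correlations of Slc6a13 with the other markers of the list are not given, so the pair does not stand for the list. Slc22a6 exceeded the filter value only in null array 4. Slc22a6 correlated with Slc6a13 at r = 0.935 (rho 0.728, 0.792 without those 2 arrays), and Slc47a1 at r = 0.779 (rho 0.680, 0.402 without them). Slc22a6 and Slc47a1 read 5.23 and 7.66 in wild-type array 5, 5.08 and 6.56 in heterozygous array 4 and 5.50 and 8.05 in null array 4. Slc22a6 was 4.2 to 4.61 in all other arrays. Slc47a1 was also high where Slc6a13 was not, at 7.35, 6.62 and 7.08 in null arrays 1, 2 and 5. The summed signal of the fibroblast markers was 8.77 to 10.5 in the wild-type, 8.92 to 9.77 in the heterozygous and 8.5 to 10.6 in the null arrays, with 3 of 16 tested markers higher in the null than in the wild type, Fbln1, Dcn and Pdgfra, and 1, Ogn, lower. The Pdgfra call ended without the null arrays of mismatched sex (adjusted p = 0.0621). Aldh1a2 and Slc22a6 itself did not pass the filter. With the mean log2 level of the 16 tested markers as a covariate, chosen after the data were seen, the Slc6a13 difference between null and wild type was -0.77 (adjusted p = 0.0312, limma), against 0.20 without it. That mean included Slc47a1 and was 7.78 to 8.286 in the wild-type and 8.008 to 8.496 in the null arrays. It thus ran partly with genotype, and nothing is read from this fit.

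**Figure D3:**
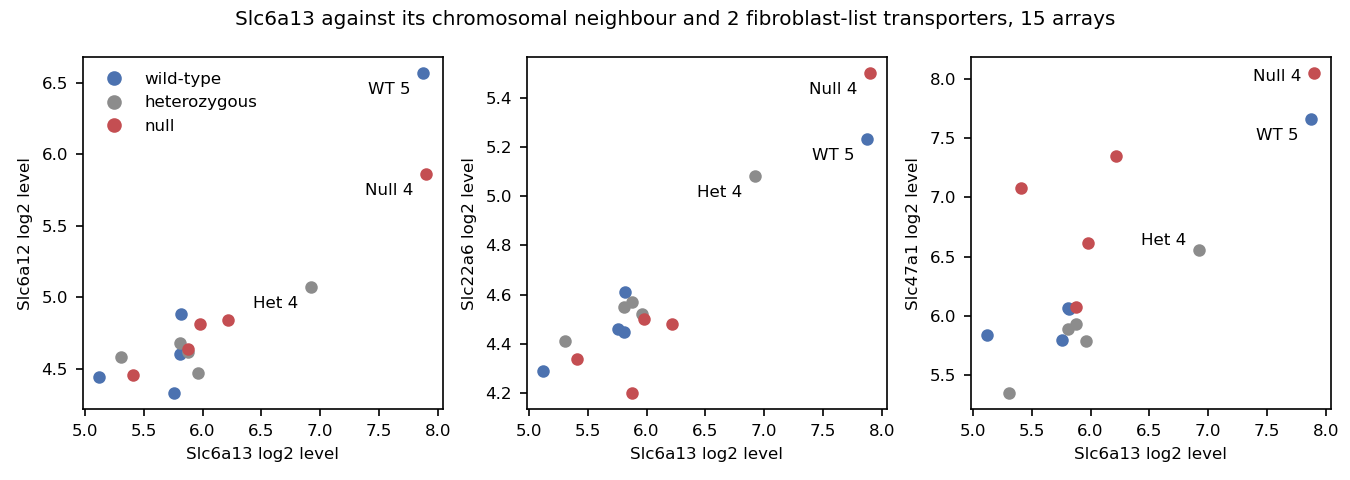
Slc6a13 level (horizontal axis, log2) against that of its neighbour Slc6a12 and the fibroblast-list genes Slc22a6 and Slc47a1 (vertical axes, log2); each point is 1 of 15 arrays, coloured by genotype. Wild-type array 5, null array 4 and heterozygous array 4 hold the highest levels of Slc6a13, Slc6a12 and Slc22a6. For Slc47a1, null arrays 1, 2 and 5 lie above heterozygous array 4.

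Slc6a8 encodes the creatine transporter and lies on the X chromosome. It read 6.48, 6.43, 6.25, 6.28 and 6.50 in the wild type, 6.62, 6.43, 6.39, 6.43 and 6.53 in the heterozygotes and 6.31, 6.56, 6.47, 6.43 and 6.16 in the null arrays. The groups overlapped, and its range over all arrays was 0.46. The difference between null and wild type was -0.002 (SE 0.0771, 95% interval -0.16 to 0.16, adjusted p = 0.990, limma). Without the null arrays of mismatched sex it was 0.10 (adjusted p = 0.507).

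Between heterozygous and wild-type arrays 0 of the 6 tested members were called by limma, and 0 of all tested genes (0%). At an unadjusted p under 0.05 the counts were 0 of 6 and 381 of 10109 (3.77%). The largest difference among the tested members was that of Slc6a9, 0.21 (95% interval -0.04 to 0.46). Between null and heterozygous arrays, 2 of the 5 tested members other than Slc6a20a were called, Slc6a15 and Slc6a6, beside 7.82% of all tested genes, 4.28% being higher in the null and 3.54% lower. For Slc6a9 the difference was 0.20 (adjusted p = 0.299) and for Slc6a13 0.30 (adjusted p = 0.722). Heterozygous array 1, the array with neural transcripts, held the highest heterozygous values of Slc6a9 and Slc6a6. Without it the null excess over the heterozygotes was 0.32 for Slc6a9 (adjusted p = 0.0839, limma), 0.76 for Slc6a6 (adjusted p = 0.0394) and 0.82 for Slc6a15 (adjusted p = 0.000877), and the heterozygous difference from the wild type was 0.0985 for Slc6a9. Null arrays and the arrays of each other genotype did not overlap for Slc6a15. Such a separation of null from heterozygous arrays was seen in 5.76% of the genes tested. The null arrays of Slc6a20a also lay above every heterozygous array. That is a description only, since the null level of Slc6a20a was among the reasons for the choice.

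Clock-output genes, measured as the mean of 7 genes minus that of 2 genes of opposite phase, gave a score of 0.42 to 0.90 in the wild-type, 0.45 to 0.80 in the heterozygous and -0.14 to 0.41 in the null arrays, with no overlap between null and the others. Against the wild type, 1 of the 9 genes rose, Arntl by 0.53 (adjusted p = 0.0103), and 2 fell, Ciart by 0.97 (adjusted p = 0.00719) and Dbp by 0.47 (adjusted p = 0.0320). These adjusted p-values, without the null arrays of mismatched sex, were 0.0270, 0.00260 and 0.0336. Arntl, the clock's transcriptional activator, correlated with Slc6a6 over 15 arrays at r = 0.913, and at 0.804 for deviations from genotype means. Over the 15 arrays r was 0.793 for Slc6a20a, 0.761 for Slc6a9, 0.638 for Slc6a15 and 0.415 for Slc6a13. By Spearman rho Slc6a9 ranked above Slc6a6, at 0.870 against 0.827. Without the 2 arrays farthest from each member's median, r was 0.804 for Slc6a6, 0.800 for Slc6a20a and 0.798 for Slc6a9. It was then 0.589 for Slc6a15 and 0.381 for Slc6a13. Arntl itself was low, with a wild-type mean of 5.18, below the filter value of 5.31. For the deviations r was 0.579 for Slc6a9, 0.501 for Slc6a13, 0.458 for Slc6a20a and -0.0804 for Slc6a15. Null arrays 2 and 5, at the upper end of the null clock scores with 0.41 in both, were the 2 null arrays in which Slc6a6 lay inside the wild-type range. Null array 5 was also of mismatched sex, and null array 2 also held the lowest null values of Slc6a15 and Slc6a20a. What sets the Slc6a6 level in these arrays was not tested. With the score as a covariate the null excess over the wild type was 0.23 for Slc6a6 (SE 0.250, adjusted p = 0.785), 0.11 for Slc6a9 (SE 0.167, adjusted p = 0.858), 0.83 for Slc6a15 (SE 0.165, adjusted p = 0.0684) and 0.91 for Slc6a20a (SE 0.311). Time of collection is not in the labels, and the score and the genotype cannot be told apart here because the score does not overlap between the null and the wild type.

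**Figure D4:**
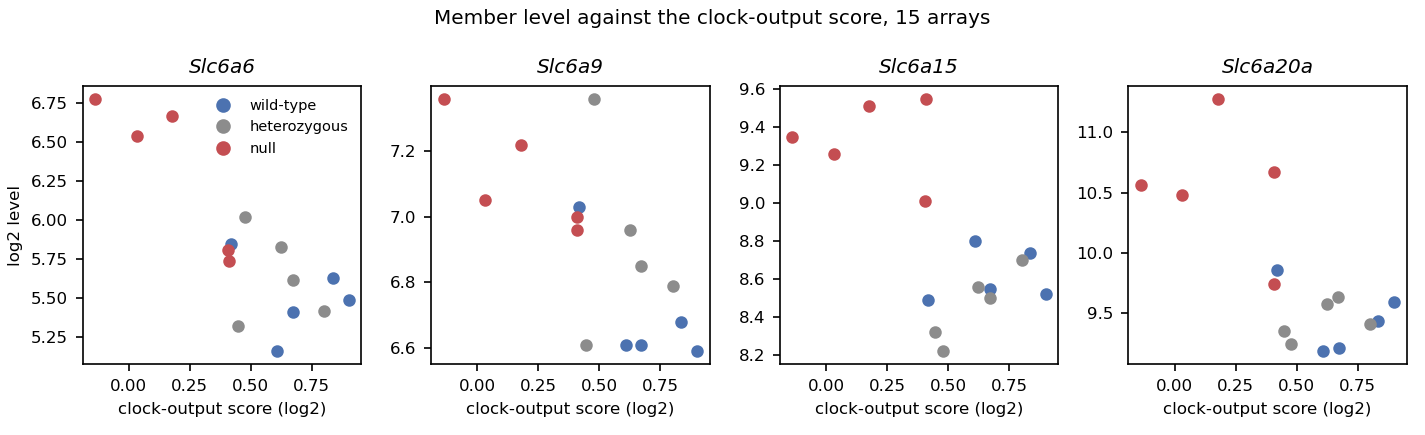
Log2 level (vertical axes) of 4 members against the clock-output score (horizontal axis, log2 units, 7 genes minus 2 of opposite phase), each point 1 of 15 arrays coloured by genotype. The null scores run from -0.14 to 0.41 and the wild-type scores from 0.42 to 0.90, and Slc6a6 is highest in the null arrays with the lowest scores.

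Collectrin (Cltrn) is an accessory protein that brings certain SLC6 amino acid carriers to the membrane. Cltrn read 6.08, 5.89, 5.90, 5.85 and 5.92 in the wild type, 5.86, 5.77, 5.97, 5.69 and 5.85 in the heterozygotes and 7.13, 6.29, 6.24, 6.20 and 6.87 in the null arrays. The null arrays lay above all others. It rose by 0.62 in the null (adjusted p = 0.0139, limma), and by 0.32 without the null arrays of mismatched sex (adjusted p = 0.0227).

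Other genes of amino acid and osmolyte handling were counted by lists. Of 18 tested amino acid transporters of other families, 3 rose and 1 fell between null and wild type, which is 22.2% called beside 7.72% of all tested genes, with a median difference of 0.103 beside 0.012. The cystine exchanger Slc7a11 rose by 0.86 (adjusted p = 0.0372), Slc38a2, a neutral amino acid carrier, by 0.60 (0.0139) and Slc1a5, an exchanger of neutral amino acids, by 0.26 (0.0418), while the glutamine carrier Slc38a3 fell by 0.38 (0.0112). The Slc7a11 call was lost on dropping null array 3, null array 4 or any of wild-type arrays 1 to 3 (adjusted p 0.0679 to 0.0995), and that of Slc1a5 in 9 of 15 fits that left out 1 array (0.0511 to 0.114), while those of Slc38a2 and Slc38a3 held in all 15. Without the null arrays of mismatched sex the adjusted p-values were 0.00824, 0.0897, 0.0962 and 0.0528 for Slc7a11, Slc38a2, Slc1a5 and Slc38a3. Against the heterozygotes, 2 of the 18 rose and 1 fell.

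Of 10 tested osmolyte and cell volume genes, 2 rose, the choline transporter-like Slc44a2 by 0.22 (adjusted p = 0.0372) and the volume-regulated channel subunit Lrrc8d by 0.21 (adjusted p = 0.0398), and 0 fell, which is 20% called beside 7.72% of all tested genes. Nfat5 differed by 0.20 (adjusted p = 0.113) and Lrrc8c by -0.31 (adjusted p = 0.0960). Of 11 tested genes of creatine, taurine and betaine metabolism, 1 rose: Bhmt, which moves a methyl group from betaine to homocysteine, by 0.45 (adjusted p = 0.0489). That is 9.09% called, near the 7.72% of all tested genes. Csad, Gatm and Chdh differed by 0.21, 0.60 and -0.19 and did not pass. Of 12 tested genes of proline, glycine and GABA metabolism, 1 rose: Gnmt, which methylates glycine, by 0.72 (adjusted p = 0.0224), and the 8.33% called was likewise near that share. Gldc, Pycrl and Amt differed by 0.37, -0.27 and 0.16 and did not pass. Without the null arrays of mismatched sex the calls of Bhmt, Gnmt and Lrrc8d ended (adjusted p = 0.174, 0.0599 and 0.166). Leaving out 1 array ended the calls of Slc44a2, Lrrc8d and Bhmt in 8, 9 and 11 of 15 fits, and that of Gnmt without null array 1 or 3 (adjusted p 0.0567 to 0.0677).

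Of 12 tested genes of the amino acid response, 0 were called by limma (2 at an unadjusted p under 0.05) with a median of -0.047: Ddit3 -0.25, Vldlr 0.12, Asns -0.29 and Psat1 -0.11. Of 11 other SLC6 transporters with a probe set, 2 were tested and 0 called (0 at an unadjusted p under 0.05): Slc6a11, a GABA transporter, differed by 0.32 and Slc6a17 by -0.03. The other 9 exceeded the filter value in 0 arrays.

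**Figure D5:**
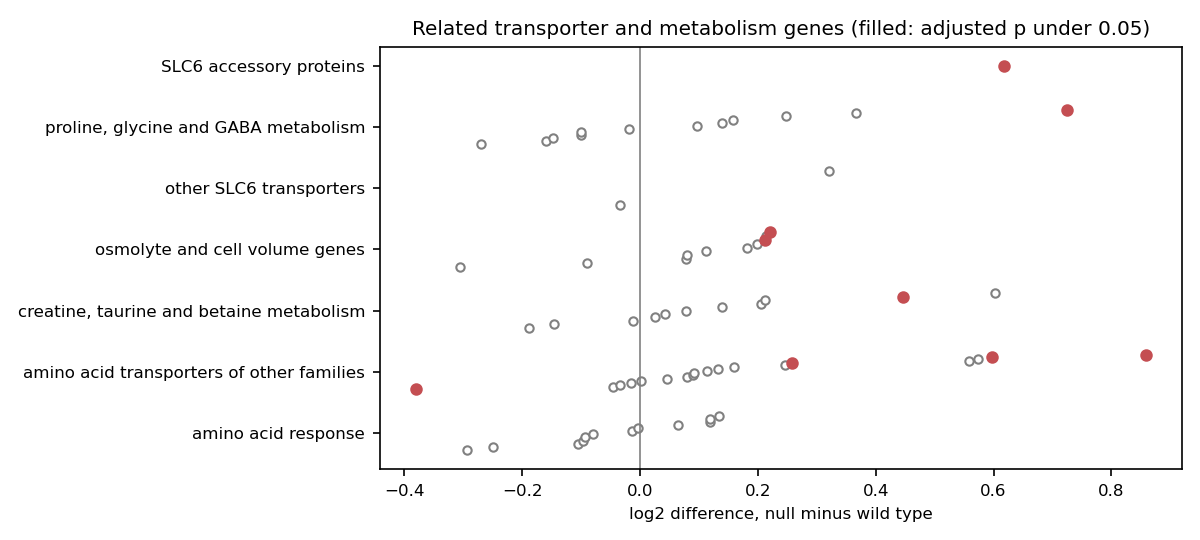
Log2 difference between null and wild type (horizontal axis) of the tested genes of 7 lists of related genes (rows), each point 1 gene, filled where the adjusted p was under 0.05. Cltrn is the filled point of the accessory list, 3 filled points lie above 0 and 1 below it among the transporters of other families, and the amino acid response and other SLC6 lists hold none that are filled.

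Genes whose levels over the 15 arrays were most like those of each tested member were ranked by Pearson r, with r of the deviations from genotype means beside it. For Slc6a20a they were Pnisr (0.955, 0.860), Slc38a2 (0.946, 0.847), Slc26a7 (0.942, 0.832), Xiap (0.940, 0.804) and Osmr (0.939, 0.766). For Slc6a15 they were Insr (0.957, 0.795), Aldh6a1 (0.955, 0.839) and Tprkb (0.945, 0.742). For Slc6a6 they were Cmip (0.928, 0.929), Flrt1 (0.927, 0.838) and Mrc2 (0.922, 0.845). For Slc6a9 they were Samd8 (0.891, 0.798), Cacna1d (0.885, 0.793) and Akap7 (0.883, 0.792). For Slc6a13 they were Ptgds (0.950, 0.952), Nnat (0.946, 0.948) and Fn1 (0.943, 0.946). Without wild-type array 5 and null array 4 the r of Slc6a13 with these genes was 0.802, 0.877 and 0.859. For Slc6a8 they were Ube2q1 (0.896, 0.892), Ppp2r5b (0.896, 0.894) and Sesn2 (0.884, 0.914). These are values over the same arrays and carry genotype, sex and clock score with them.

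The remaining marker lists were summed in the same way. Endothelial markers gave 0.542 to 0.733 in the wild-type and 0.619 to 0.872 in the null arrays, with 2 of 6 tested genes, Kdr and Cdh5, higher in the null and Pecam1, Tek, Cldn5 and Esam below the filter. Pericyte and smooth muscle, macrophage, neuron, cerebellar neuron, oligodendrocyte and erythroid lists had 0 called of 3, 3, 3, 5, 6 and 1 tested genes. The neuron list summed to 0.278 to 0.753 in the heterozygous arrays, its highest value in array 1. Of the epithelium list, 1 gene rose, Aqp1, and 2 fell, Kcne2 and Kcnj13. The calls of Kcne2 and Kcnj13 ended without the null arrays of mismatched sex (adjusted p = 0.111 and 0.0643).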

How the data were processed

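The measurement was an Affymetrix expression array of choroid plexus RNA from 5 mice per genotype. The deposited values were made by the authors in Affymetrix Expression Console 1.1 with RMA, per the submitters' processing notes, and were read as log2 values. The base is not stated, but the range of 1.57 to 13.89 is that of RMA on the log2 scale.

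Gene names came from the platform's annotation table. Of 35556 probe sets, 21789 had 1 gene symbol, 1621 several, and 12146 were not listed. The 15 array columns were compared pairwise and 0 of 105 pairs were identical. Per gene, the probe set with the highest mean was used, and limma 3.58.1 in R 4.3.3 (lmFit, eBayes, 3 genotypes, all 15 arrays) was run after a filter of 5.31 in at least 5 arrays. The pipeline was tested on simulated data in which 200 genes were changed in the null arrays. It recovered 56.7%, 82.1% and 98.5% of log2 changes of 0.3, 0.5 and 1, and 7.6% of its calls were false. Alternatives covered the filter, scaling, array weights, each array left out, the arrays that went against their labels, the label number, the replicate number, the clock-output score, the fibroblast marker mean and the Xist level. The last 2, a filter at the median of all probe sets with 1 symbol, and leaving out all arrays that stood apart at once were added after the data were seen.

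Named genes were the 8 members, up to 4 genes of each list with the smallest p for null against wild type, and the 3 (5 for Slc6a20a) most like each tested member. The members and lists were chosen with earlier results of these data known. Lists were described by counts and medians, without a set test. Promoter windows came from RefSeq GRCm38.p6 and covered 5 of the 8 members. Arrays limit precision by their number, and the smallest signals by background.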

Additional observations from a re-analysis of the deposited data

Results flagged for a closer look

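Within the 30 groups of 5 arrays that were checked for an array apart from the others, 4 were found, all with a gap over 0.710 of the group's range. About 1 in 20 such groups is picked out by chance. Slc6a13 read 7.87 in wild-type array 5 against 5.12 to 5.82 in the other wild-type arrays, a gap of 0.745 of the range. Slc6a12 read 6.57 in the same array, and 5.86 in null array 4. Slc6a9 read 7.03 in wild-type array 5 against 6.59 to 6.68 in the other wild-type arrays. Wild-type array 5 thus accounted for 3 of the 4.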

How the results depend on the processing

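Counts of members in this paragraph leave out Slc6a20a, which has no test of its own, and cover the other 5 tested members. The null against wild-type count of 3 fell to 1 with the label number as a covariate and to 0 with the clock-output score. It was 2 without the filter, with quantile normalization repeated or with median centring. It was also 2 without the mismatched-sex null arrays, and with the replicate block, the fibroblast marker mean or the Xist level in the fit. It was 1 to 3 when 1 array was left out. The null against heterozygous count of 2 fell to 1 with the label number or the clock-output score. It was also 1 without the filter, with only the 2 genotypes fitted, and with the variance trend and robust options of limma. Leaving out the mismatched-sex null arrays, the replicate block and the Xist level each gave 1 likewise. The same count was 1 to 2 when 1 array was left out. The midpoint count of 1 was 0 without the filter, with all probe sets, median centring, the mismatched-sex null arrays or the neural heterozygous array left out (or both), and with the label number, the replicate block, the clock-output score, the fibroblast marker mean or the Xist level in the fit. It stayed at 1 with array weights and was 0 to 1 when 1 array was left out. The cause of these changes was not tested. With the fibroblast marker mean as a covariate Slc6a13 reversed, to -0.77 between null and wild type (adjusted p = 0.0312, limma) and to -1.18 between null and heterozygous (adjusted p = 0.0190). That covariate was chosen after the data were seen, included Slc47a1 and ran partly with genotype, so nothing is read from the reversal. The genes called between null and wild type were 780, with 458 for a fit of 2 genotypes, 1315 with array weights, 259 with the label number, 12 with the clock-output score, 341 with the fibroblast mean, 316 with Xist, 401 without the mismatched arrays and 392 to 1420 with 1 array left out. Those between null and heterozygous were 791, with 500 without the filter, 342, 1296, 199, 13, 74, 236 and 332 in the same order after it, 297 without the mismatched and neural arrays, 456 without the neural array and 356 to 1812 with 1 array left out. Slc6a15 was called in 32 of 33 alternatives for null against wild type (0.59 to 0.83) and in 33 of 33 for null against heterozygous, and Slc6a6 in 25 of 32 and 13 of 32. Slc6a9 was called in 14 of 33 for null against wild type.

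Same-numbered arrays of different genotypes did not deviate together: the correlations of 15 pairs ranged from -0.254 to 0.238, and 4 exceeded 0.1. With the replicate block, 2 members other than Slc6a20a were called for null against wild type (Slc6a9 adjusted p = 0.0717, limma). Likewise 1 was called for null against heterozygous (Slc6a6 adjusted p = 0.0569). In all, 520 genes were called between null and wild type.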
